A study of Mus musculus with 24 samples.

Results

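Gene expression in the epidermis of 6-day-old mice that lack Mad2 in keratinocytes was compared with that of controls of the same age, on 24 Illumina BeadChip arrays of which 4 belong to postnatal day 6 (P6). The members of the comparison were chosen by label, with earlier results of these data known. P6 samples 1 and 2 carried Mad2f/f; K14Cre+ and were described as Nude, and P6 samples 3 and 4 were Cre-Neg with no phenotype recorded. All 4 were B6-129Sv mixed mice, and the labels do not say whether the Cre-Neg controls carried floxed Mad2 alleles. K14Cre drives Cre recombinase from the promoter of keratin 14, which is active in basal keratinocytes and follicle epithelium, so other cells of the skin keep Mad2. The epidermis had been peeled from the dermis after an overnight trypsin digest in the cold. Mutants of P13 and P20 (same genotype and label) and P3 mutants (same genotype, no phenotype recorded), each with Cre-Neg controls, were used to place the values. A P3 sample with conflicting genotype labels was put in no group. Adult arrays also entered the normalization, the detection filter and the fit, but no comparison. Their genotypes were Mad2f/f; p53f/+; K14Cre+, Mad2f/f; K14Cre+ and Mad2f/+; K14-Cre+. The labels list each sample separately without saying that each came from its own mouse, so the p-values measure a spread between samples that may in part be technical.

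Mad2, the product of Mad2l1, is a core protein of the spindle assembly checkpoint, which delays chromosome separation until every kinetochore is held by the spindle. Cells that divide without it missegregate chromosomes. The epidermis is renewed from a dividing basal layer whose daughters move up through spinous and granular layers, change their keratins, and end as cornified cells sealed by cross-linked proteins and extracellular lipids. At this age hair follicles grow downwards, and their matrix cells divide rapidly to build the hair shaft and inner root sheath. Keratinocytes of injured or hyperproliferative epidermis switch on another set of genes, among them Krt6, Krt16, small proline-rich proteins and S100 proteins.

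Levels are normalized log2 intensities of 1 probe per gene. A difference is mutants minus controls on that log2 scale with its standard error (SE). A gene "rose" or "fell" where limma's adjusted p was under 0.05 over 14215 genes, with the spread pooled over all groups of the series. Where no array of the dimmer group was above background, the fold is a lower limit ("at least"). For it the mean of the brighter arrays is divided by that of the dimmer ones, where each dim value is first raised to the lowest level detected on its array. The number of arrays, 2 on each side, limits every value.

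Promoters of some genes of the main patterns are shown first. They were taken by size of difference among called list members whose printed window holds every motif sought for that list. The marked letters are thus present by choice, and other called members lack them. RefSeq's GRCm38.p6 table held a window for 9318 of the measured genes. The 200 bases before the annotated start are printed in the direction of transcription. In the windows of Sprr2d (chr3:92338940-92339139, plus strand), Sprr2e (chr3:92351943-92352142, plus strand) and Rptn (chr3:93393499-93393698, plus strand), genes of cornified cells that rose, capitals mark a match to AP-1 letters (TGANTCA) or a TATA box (TATAAA). The base at N was left free, so the looser match TGATTCA in Rptn was counted too.
Sprr2d: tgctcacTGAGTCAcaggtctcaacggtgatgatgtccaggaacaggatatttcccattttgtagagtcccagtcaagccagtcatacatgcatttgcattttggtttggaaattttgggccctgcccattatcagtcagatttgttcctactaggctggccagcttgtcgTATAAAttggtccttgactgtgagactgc
Sprr2e: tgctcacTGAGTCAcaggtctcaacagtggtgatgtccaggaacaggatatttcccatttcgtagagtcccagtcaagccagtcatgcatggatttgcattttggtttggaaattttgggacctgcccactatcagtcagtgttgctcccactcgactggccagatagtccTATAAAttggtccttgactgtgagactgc
Rptn: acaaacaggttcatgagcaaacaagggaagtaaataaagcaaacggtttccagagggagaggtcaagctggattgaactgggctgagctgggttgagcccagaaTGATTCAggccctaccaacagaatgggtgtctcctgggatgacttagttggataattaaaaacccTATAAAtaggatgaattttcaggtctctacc
In the windows of Mki67 (chr7:135716380-135716579, minus strand) and Kif22 (chr7:127042421-127042620, minus strand), genes of dividing cells that fell, capitals mark a CCAAT box or a cell cycle homology region (TTTGAA).
Mki67: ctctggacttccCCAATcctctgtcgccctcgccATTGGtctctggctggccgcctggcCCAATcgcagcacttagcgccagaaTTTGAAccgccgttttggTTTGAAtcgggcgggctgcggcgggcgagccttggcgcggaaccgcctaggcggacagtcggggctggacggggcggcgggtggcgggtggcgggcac
Kif22: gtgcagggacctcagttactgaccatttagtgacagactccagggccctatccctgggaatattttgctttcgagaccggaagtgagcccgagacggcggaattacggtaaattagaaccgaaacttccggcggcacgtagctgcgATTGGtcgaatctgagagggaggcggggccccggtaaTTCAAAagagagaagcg
In the window of Oas1g (chr5:120887614-120887813, minus strand), an interferon-induced gene that rose, capitals mark overlapping matches to an interferon-stimulated response element (GAAA, any 2 bases, GAAA).
Oas1g: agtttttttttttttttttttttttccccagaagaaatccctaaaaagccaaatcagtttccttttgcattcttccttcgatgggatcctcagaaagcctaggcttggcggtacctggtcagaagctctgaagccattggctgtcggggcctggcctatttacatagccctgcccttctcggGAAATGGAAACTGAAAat
The windows of Sprr2d and Sprr2e were identical at 184 of 200 positions. Each motif was searched on both strands of the 250 bases before the start. AP-1 letters stood in 13 of 30 windows of cornified envelope precursors (43.3%) against 6.36% of all windows, and the TATA box in 50% against 9.28%. In the 23 windows of precursors past the threshold at P6 these shares were lower, 34.8% and 39.1%. The cell cycle homology region stood in 7 of 14 windows of mitosis genes (50% against 13.1%), and the CCAAT box in 78.6% against 39.8%. In the 9 windows of mitosis genes past the threshold the shares were 66.7% and 77.8%. The interferon element stood in 6 of 15 windows of interferon genes (40% against 3.14%), and in 28.6% of the 7 past the threshold. The same letters TTTGAA stood in 7 of 8 windows of hair shaft keratins (87.5%), in 35.3% of fibroblast windows and in 21.7% of those of spindle checkpoint genes. AP-1 letters stood in 35.7% of the windows of stress keratins and wound genes and in 0 of 10 of the stefin A and Serpinb3 inhibitors, and the interferon element in 11.8% of fibroblast windows. These are matches of letters in windows of genes whose pattern was already known, and no binding was measured.

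Mad2l1 was lower in both mutants than in both controls. Its level was 6.03 and 6.41 in mutants 1 and 2 and 8.20 and 8.76 in controls 3 and 4, and the groups did not overlap. The same held for 10574 of all 14215 genes, in either direction. The difference was -2.26 ± 0.48 (SE, adjusted p = 0.0028) by limma. At P13 it was undetected in the mutants and at least 8.36-fold lower (adjusted p = 3.6e-05). The position of the probe relative to the deleted exons is not stated by the labels or files, so the value need not report the deletion itself, and cells without Cre contribute to it.

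The 4 arrays differed in how much dermal RNA they carried. Over the 24 measured genes of the list of fibroblasts and dermal matrix, the mean level was 5.7 in each of mutants 1 and 2, against 10.3 in control 3 and 10.7 in control 4. In P3 controls it ran from 5.9 to 6.0, and in the 4 P13 arrays from 9.2 to 9.9. P6 mutants thus lay close to P3 controls, and P6 controls far above both. The list of endothelium and pericytes behaved alike, with means of 5.3 and 5.2 in the mutants against 8.0 and 7.8 in the controls. In bulk tissue, fewer cells of a type and less RNA per cell cannot be told apart. To set the mutants beside controls with a like dermal signal, every difference was also taken between the P6 mutants and the 4 P3 controls. That comparison was chosen after seeing the data. It shares the mutant arrays with the first, differs in age and in chip, and rests on P3 arrays that were dimmer. Their 75th percentile of signal lay 41.8 to 51.8 units above background, against 115 to 158 on P6 arrays. Control 4 lay on another chip than the 3 other P6 arrays and was the only array of that chip. A fit with the chip as a block therefore compares the P6 mutants with control 3 alone. The share of probes detected was 34.3 and 33.4% in the mutants and 38.6 and 40.1% in the controls.

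**Figure D1:**
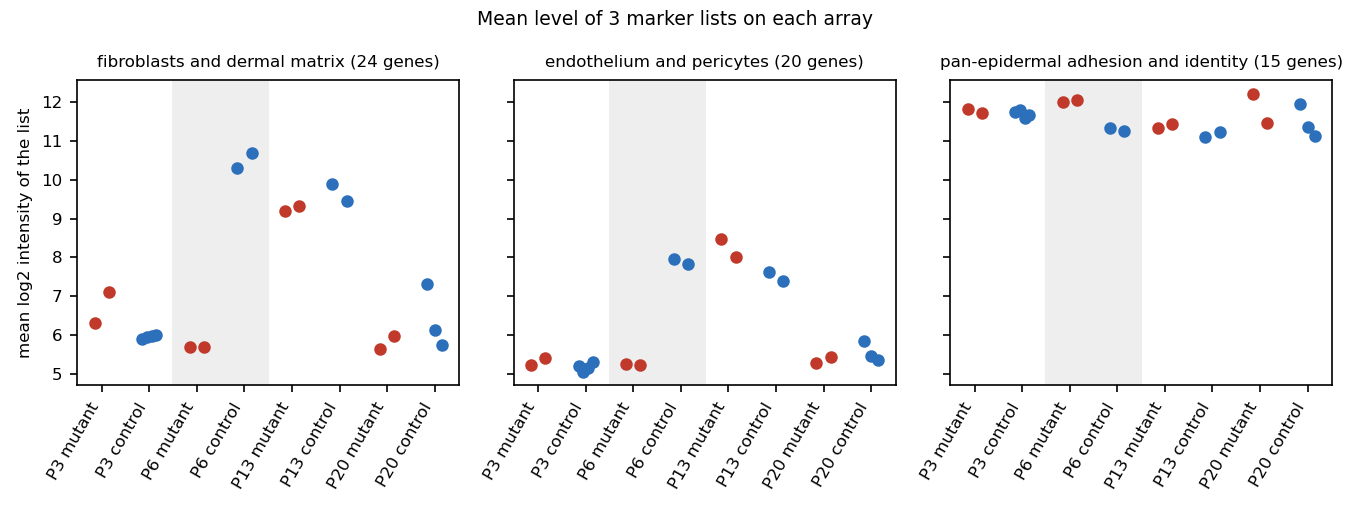
Mean normalized log2 level (vertical axis) of 3 gene lists in each array of P3, P6, P13 and P20. Each point is 1 array, mutants in red and controls in blue, with P6 shaded. The fibroblast genes average 5.7 in both P6 mutants and 10.3 and 10.7 in the P6 controls.

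Across all genes, 3234 passed the threshold at P6. Of these 1351 rose (9.5% of genes) and 1883 fell (13.2%), and the median difference was -0.04. Higher genes made up 41.8% of the calls. With each array centred on pan-epidermal genes the median of all genes moved to -0.77 and higher genes made up 10.7% of 4603 calls. Centring subtracts 1 value per array, set by 15 genes of which 4 rose. Every P6 difference thus moved down by the same amount, and a small positive one turned negative whatever the gene. Against P3 controls, 865 genes were higher in P6 mutants (6.09%) and 905 lower (6.37%). Of the 3234 genes called at P6, 657 passed in the same direction against P3 controls and 1018 had a difference of the opposite sign there, the mutant arrays being shared. Many calls were lost whichever of the 4 arrays was left out. Such a fit leaves 1 group a single sample, so dependence on that array cannot be told apart from the smaller number of samples. Counts within gene groups are read against these shares. Separation of both mutants from both controls is read against the 10574 of 14215 genes that showed it in either direction.

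**Figure D2:**
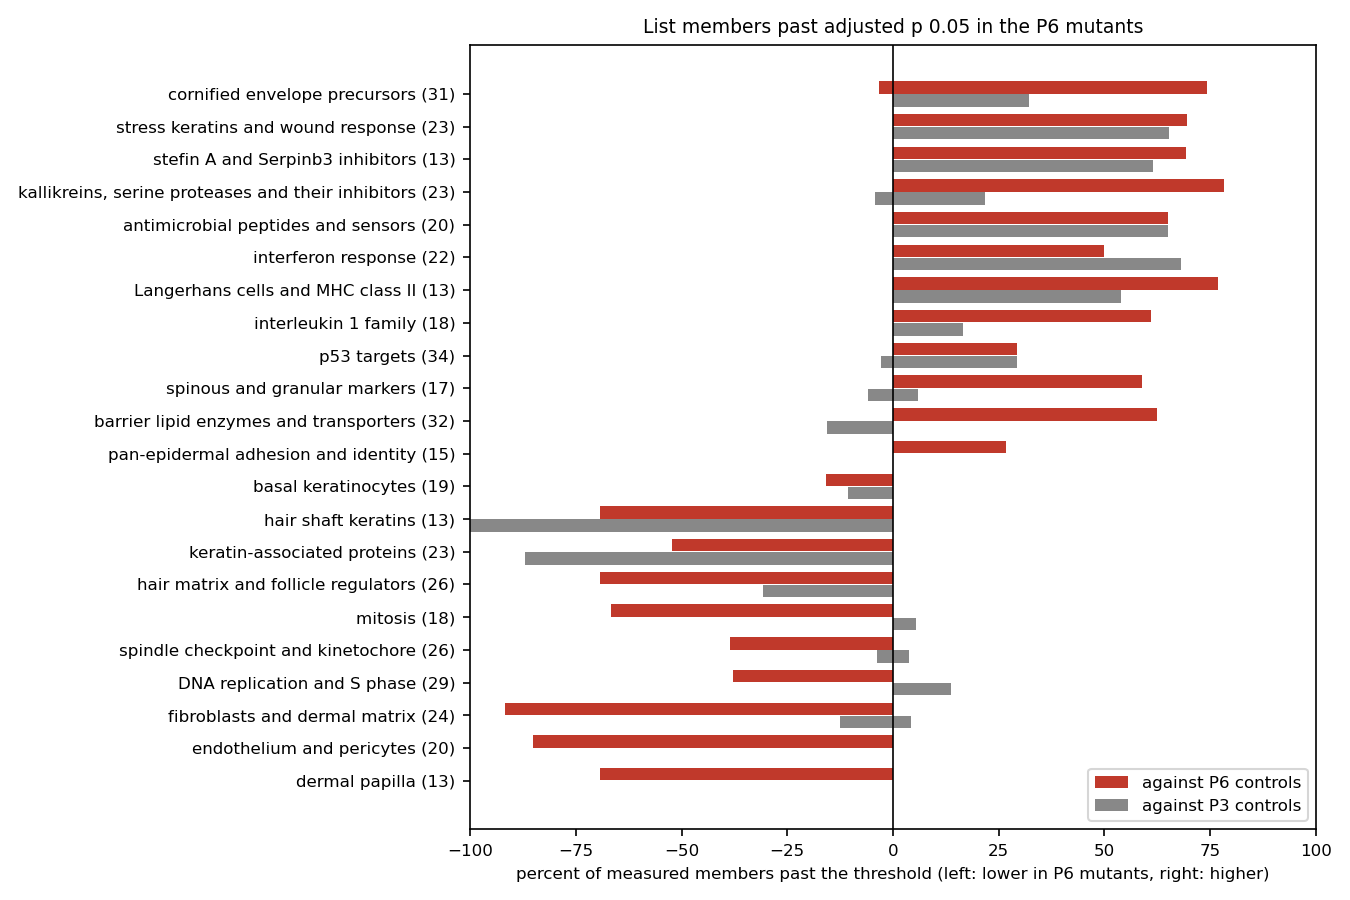
Percent of the measured members of each gene list (horizontal axis) that passed the threshold upwards or downwards, against P6 controls and against P3 controls. Of the cornified envelope precursors, 23 of 31 rose against P6 controls and 10 against P3 controls, and of the fibroblast genes 22 of 24 fell against P6 controls and 3 against P3 controls.

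Genes of the outer epidermis were among the largest rises. Of 31 cornified envelope precursors, the proteins cross-linked into the shell of dead surface cells, 23 rose and 1 fell, with a median difference of 3.01. Sprr2d, a small proline-rich protein, stood at 14.64 and 13.11 in mutants 1 and 2 and 5.29 and 5.43 in controls 3 and 4. Both mutants were far above both controls, by 8.51 ± 0.72 (SE, adjusted p = 6.5e-07) in limma's test. Its neighbour Sprr2e was at 11.70 and 9.95 in mutants 1 and 2 and 4.64 and 4.63 in controls 3 and 4, not detected in either control and at least 47.3-fold higher in the mutants (adjusted p = 2.7e-06). Rptn, a granular layer protein related to filaggrin, lay at 14.93 and 13.94 in mutants 1 and 2 and 8.73 and 8.40 in controls 3 and 4, a difference of 5.87 ± 0.71 (SE, adjusted p = 2.2e-05). Lce3f, a late cornified envelope protein of the group linked to barrier repair, was at least 53.1-fold higher (adjusted p = 4.3e-06), and its relative Lce3c rose by 5.77 ± 0.67 (SE, adjusted p = 1.4e-05). The probe named LOC100042514 in the file rose by 7.04 ± 0.58 (SE, adjusted p = 5.1e-07) and 2610528A11Rik by 6.36 ± 0.61 (SE, adjusted p = 2.1e-06). Loricrin, filaggrin and involucrin, the main shell proteins of normal epidermis, did not pass. Lor was at 15.10 and 15.04 in mutants 1 and 2 and 15.32 and 15.11 in controls 3 and 4, close to the brightest level of the arrays, 15.72, and compression of such bright signals was not tested. Flg differed by 0.52 ± 0.29 (SE, adjusted p = 0.23) and Ivl by 0.82 ± 0.38 (SE, adjusted p = 0.14). With 1 P6 array left out the count of rises ran from 16 (without mutant 2 or control 4) to 22 (without mutant 1).

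Against P3 controls fewer members of the list passed: 10 of 31 were higher and 0 lower, with a median of 1.14. Sprr2d was higher by 5.20 ± 0.62 (SE, adjusted p = 6.1e-05), Rptn by 2.93 ± 0.62 (SE, adjusted p = 0.0066) and Lce3f by 4.57 ± 0.55 (SE, adjusted p = 6.1e-05). In P3 controls Sprr2d ran from 7.66 to 9.55, between the P6 controls and the P6 mutants. Sprr2 and Lce genes are similar in sequence, so probes may share signal.

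Injury-type keratins and wound genes rose in both comparisons. Of 23 stress keratins and wound response genes, 16 rose and 0 fell (median 2.75), and against P3 controls 15 were higher and 0 lower (median 1.86). Krt16, a keratin of wound edges and psoriatic skin, stood at 15.14 and 15.25 in mutants 1 and 2 and 9.59 and 9.25 in controls 3 and 4. It was thus far brighter in both mutants, by 5.78 ± 0.55 (SE, adjusted p = 2.1e-06), and by 4.09 ± 0.48 (SE, adjusted p = 5.1e-05) over P3 controls. Krt6b, its partner in the filament, was at 15.52 and 14.49 in mutants 1 and 2 and 8.83 and 8.68 in controls 3 and 4, a difference of 6.25 ± 0.80 (SE, adjusted p = 3.5e-05), and 4.96 ± 0.69 (SE, adjusted p = 2.9e-04) against P3 controls. Its near-identical paralog Krt6a showed 11.44 and 9.68 in mutants 1 and 2 and 5.37 and 5.61 in controls 3 and 4. The spread between the mutants was wider there, and the difference of 5.07 ± 1.51 (SE, adjusted p = 0.023) was not past the threshold when 1 array was left out: the adjusted p was 0.16 without mutant 1, 0.10 without control 3 and 0.094 without control 4. Serpinb2, an inhibitor of plasminogen activators, rose by 4.29 ± 0.43 (SE, adjusted p = 2.9e-06), and Hbegf, a ligand of the EGF receptor released at wounds, by 2.75 ± 0.40 (SE, adjusted p = 1.2e-04). Krt17, which also marks injured epidermis, did not pass, at -0.16 ± 0.21 (SE, adjusted p = 0.66). Mutant 1 exceeded mutant 2 by more than 1 in 12 of the 23 genes and the reverse held in 0 (median difference 1.03). Without mutant 1 the list held 11 rises. Members of the S100 family overlap with this list, and they are given with the antimicrobial genes.

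Proteases of the cornified layer and their inhibitors rose as a group against P6 controls. In the list of kallikreins, serine proteases and their inhibitors, 18 of 23 rose (median 3.17), against 5 higher and 1 lower relative to P3 controls (median 0.52). Klk6, a kallikrein that cleaves desmosomal cadherins, was at 14.81 and 13.83 in mutants 1 and 2 and 8.87 and 8.21 in controls 3 and 4, a difference of 5.78 ± 0.54 (SE, adjusted p = 1.8e-06), and exceeded P3 controls by 2.41 ± 0.47 (SE, adjusted p = 0.0039). Wfdc12, a protease inhibitor with a whey acidic protein core, rose by 5.07 ± 0.79 (SE, adjusted p = 2.1e-04). Among 13 stefin A and Serpinb3 inhibitors of cysteine and serine proteases, 9 rose against P6 controls and 8 against P3 controls, with medians of 3.59 and 1.88. Serpinb3c lay at 12.29 and 11.97 in mutants 1 and 2 and 4.54 and 4.90 in controls 3 and 4. It was not detected in the controls and at least 117-fold higher in the mutants (adjusted p = 4.4e-07). Stfa2l1, a stefin A gene, was at 11.69 and 11.30 in mutants 1 and 2 and 5.10 and 4.78 in controls 3 and 4, undetected in the controls and at least 75.2-fold higher (adjusted p = 7.3e-06). Serpinb3a rose by 4.73 ± 0.56 (SE, adjusted p = 1.8e-05) and Serpinb3d by 4.11 ± 0.52 (SE, adjusted p = 3.0e-05), while Stfa1 was near the brightest level in all arrays and differed by 0.96 ± 0.50 (SE, adjusted p = 0.19). Csta3 rose by 6.01 ± 0.89 (SE, adjusted p = 1.3e-04). Stefin A and Serpinb3 genes are near-identical within each family, so their probes may report one another.

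**Figure D3:**
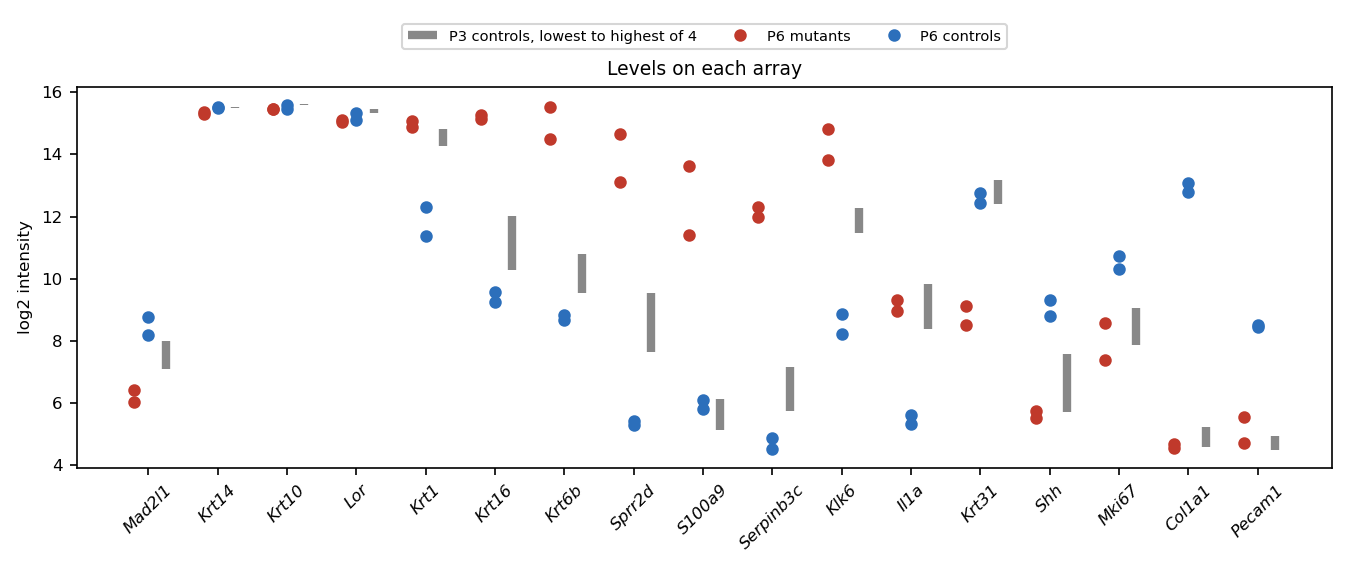
Normalized log2 level (vertical axis) of 17 genes in mutants 1 and 2 and controls 3 and 4 of P6, 1 point per array, with the range of the 4 P3 controls as a grey bar. Krt14, Krt10 and Lor sit together near the top of the scale, Krt16, Sprr2d and Serpinb3c are far higher in both mutants, and Col1a1, Krt31 and Mki67 are lower.

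Markers of ordinary differentiation rose against P6 controls, and few passed against P3 controls. Of 17 spinous and granular markers, 10 rose and 0 fell (median 1.42), but against P3 controls 1 was higher and 1 lower (median 0.03). Krt1, the keratin that replaces Krt5 in spinous cells, lay at 14.89 and 15.08 in mutants 1 and 2 and 12.31 and 11.38 in controls 3 and 4. It exceeded P6 controls by 3.14 ± 0.42 (SE, adjusted p = 5.6e-05) and differed from P3 controls by 0.44 ± 0.37 (SE, adjusted p = 0.44). Its partner Krt10 stood at 15.44 and 15.44 in mutants 1 and 2 and 15.57 and 15.44 in controls 3 and 4, near the top of the scale, with a difference of -0.06 ± 0.21 (SE, adjusted p = 0.88). Asprv1, the protease that processes filaggrin, rose by 2.61 ± 0.30 (SE, adjusted p = 1.2e-05), Calm4, a calcium sensor of keratinocytes, by 2.13 ± 0.31 (SE, adjusted p = 1.1e-04) and Them5 by 2.56 ± 0.35 (SE, adjusted p = 6.1e-05). None of these 3 passed against P3 controls, where Asprv1 differed by 0.06 ± 0.26 (SE, adjusted p = 0.90), Calm4 by 0.22 ± 0.27 (SE, adjusted p = 0.61) and Them5 by -0.60 ± 0.30 (SE, adjusted p = 0.20). Skint3, an immunoglobulin-like gene of skin, was at 8.61 and 8.99 in mutants 1 and 2 and 5.01 and 4.85 in controls 3 and 4, undetected in the controls, at least 11.6-fold higher (adjusted p = 0.0029), and 2.37 ± 0.72 (SE, adjusted p = 0.042) above P3 controls.

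Enzymes of the lipid barrier rose against P6 controls, and none was higher against P3 controls. Of 32 barrier lipid enzymes and transporters, 20 rose and 0 fell against P6 controls (median 1.48). Against P3 controls 0 were higher and 5 lower (median -0.20). Alox12b, a lipoxygenase needed for the cornified lipid envelope, was at 11.73 and 12.07 in mutants 1 and 2 and 9.15 and 7.82 in controls 3 and 4, and 3.42 ± 0.36 (SE, adjusted p = 5.5e-06) was its difference. Sdr9c7, which acts in the same pathway, rose by 3.35 ± 0.29 (SE, adjusted p = 8.5e-07), and the keratinocyte lipases Lipn and Lipk by 4.15 ± 0.40 (SE, adjusted p = 2.1e-06) and 3.07 ± 0.44 (SE, adjusted p = 9.3e-05). Degs2, which makes phytoceramides, was not detected in the controls and at least 18.0-fold higher (adjusted p = 0.0012). Relative to P3 controls Alox12b was lower, with a difference of -1.23 ± 0.31 (SE, adjusted p = 0.019), and Sdr9c7 differed by -0.54 ± 0.25 (SE, adjusted p = 0.16) and Lipn by -0.56 ± 0.34 (SE, adjusted p = 0.29). With arrays centred on pan-epidermal genes the count of rises at P6 was 10. P6 controls were themselves lower than P3 controls, by the threshold, in 22 of these 32 genes and in 17 of 31 cornified envelope precursors, and higher in 22 of 24 fibroblast genes. Over all genes 15.3% were lower and 18.1% higher in that comparison of controls. The part of dermal RNA in these differences was not tested.

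Adhesion genes shared by all layers moved less. Of 15 pan-epidermal adhesion and identity genes, 4 rose, 0 fell, and none passed against P3 controls in either direction. Jup, plakoglobin of desmosomes and adherens junctions, was at 9.56 and 9.95 in mutants 1 and 2 and 7.44 and 7.28 in controls 3 and 4, a difference of 2.39 ± 0.26 (SE, adjusted p = 8.0e-06). Its difference from P3 controls was 0.14 ± 0.23 (SE, adjusted p = 0.72). Of 9 desmosomal cadherins and plaque genes 4 rose and 1 fell, and 1 was higher and 0 lower against P3 controls (median 0.46). Dsg1b, of the suprabasal layers, rose by 3.34 ± 0.40 (SE, adjusted p = 2.1e-05), and Dsg2, a cadherin of basal and follicle cells, fell, at 7.63 and 6.86 in mutants 1 and 2 and 9.92 and 10.30 in controls 3 and 4, with a difference of -2.87 ± 0.55 (SE, adjusted p = 0.0013) that was -1.05 (adjusted p = 0.069) with all probes of the gene averaged.

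Basal keratinocyte genes mostly did not pass. Of 19 measured, 0 rose and 3 fell, although the median was -1.38, and 2 were lower against P3 controls (median -0.85). Krt14, whose promoter drives the Cre, stood at 15.36 and 15.31 in mutants 1 and 2 and 15.52 and 15.48 in controls 3 and 4, near the top of the scale (-0.17 ± 0.22, SE, adjusted p = 0.66). Its partner Krt5 was at 12.74 and 11.76 in mutants 1 and 2 and 13.34 and 12.56 in controls 3 and 4, so the groups overlapped (-0.70 ± 0.83, SE, adjusted p = 0.62). Trp63, the master factor of stratified epithelia, differed by -0.83 ± 0.55 (SE, adjusted p = 0.32), and the hemidesmosomal integrins Itga6 and Itgb4 by -0.61 ± 0.60 (SE, adjusted p = 0.53) and -2.07 ± 1.02 (SE, adjusted p = 0.17). The 3 that fell were Krt15, Sostdc1 and Itga3. Krt15, a keratin of basal and bulge cells, was at 9.38 and 10.04 in mutants 1 and 2 and 13.49 and 12.93 in controls 3 and 4 (-3.50 ± 0.81, SE, adjusted p = 0.0050), and its difference from P3 controls was -1.71 ± 0.70 (SE, adjusted p = 0.12). Sostdc1, an inhibitor of BMP and Wnt signals, fell by 2.68 ± 0.50 (SE, adjusted p = 0.0010) and was also lower than in P3 controls, with a difference of -1.51 ± 0.43 (SE, adjusted p = 0.033). Itga3, a laminin receptor, was called at an adjusted p of 0.048 and lost the call whichever P6 array was left out: the adjusted p was 0.12 without mutant 1, 0.21 without mutant 2, 0.16 without control 3 and 0.16 without control 4. With only the 4 P6 arrays in the fit, 11 of 19 basal genes fell, with the chip as a block 7 and after centring 7.

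Antimicrobial genes rose in both comparisons. Of 20 antimicrobial peptides and sensors, 13 rose and 0 fell (median 2.22), and 13 were higher than in P3 controls (median 1.68). S100a9, a subunit of calprotectin, which binds zinc and manganese away from microbes, was at 13.63 and 11.41 in mutants 1 and 2 and 6.12 and 5.82 in controls 3 and 4. Both mutants were above both controls, by 6.55 ± 1.07 (SE, adjusted p = 3.2e-04). Its partner S100a8 was already bright in controls, at 15.04 and 12.89 in mutants 1 and 2 and 10.20 and 10.74 in controls 3 and 4, and rose by 3.50 ± 0.94 (SE, adjusted p = 0.012), a call that did not hold without 1 array: the adjusted p was 0.16 without mutant 1 and 0.083 without control 3. Defb14, a beta-defensin, lay at 10.89 and 11.31 in mutants 1 and 2 and 4.99 and 5.24 in controls 3 and 4 (5.99 ± 0.57, SE, adjusted p = 2.1e-06). Slpi, an antimicrobial inhibitor of leukocyte elastase, rose by 4.90 ± 0.58 (SE, adjusted p = 1.7e-05), and Lcn2, lipocalin that binds bacterial siderophores, by 3.76 ± 0.66 (SE, adjusted p = 5.8e-04). Relative to P3 controls, in which S100a9 and Lcn2 were not detected, S100a9 was at least 81.3-fold higher (adjusted p = 2.0e-04) and Lcn2 at least 8.39-fold (adjusted p = 5.5e-04). Slpi was higher than in P3 controls by 4.13 ± 0.50 (SE, adjusted p = 7.0e-05) and Defb14 by 1.56 ± 0.49 (SE, adjusted p = 0.049). S100a8 and S100a9 also mark neutrophils. Of the 13 genes of the neutrophils list 6 were measured, of which 3 rose, S100a8, S100a9 and Cxcr2, and 0 fell (median 1.78), and 3 were higher and 0 lower against P3 controls (median 1.34). The granule genes Mpo, Elane, Ngp, Camp and Mmp8, the marker Ly6g and the receptor Csf3r were not among the measured genes, through the detection filter or for want of a probe. Ltf and Retnlg were measured but not detected in any P6 array. Cxcr2, a receptor of neutrophil-attracting chemokines, was at 8.28 and 6.50 in mutants 1 and 2 and 4.62 and 4.56 in controls 3 and 4, undetected in the controls and at least 4.37-fold higher (adjusted p = 0.0018).

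Interleukin 1 family genes rose against P6 controls. Of 18 measured, 11 rose and 0 fell (median 1.79), and against P3 controls 3 were higher (median 0.29). Il1a, an alarm cytokine stored in keratinocytes, was at 8.98 and 9.30 in mutants 1 and 2 and 5.34 and 5.62 in controls 3 and 4 (3.66 ± 0.67, SE, adjusted p = 8.6e-04) but differed from P3 controls by 0.25 ± 0.58 (SE, adjusted p = 0.81). Il33, a nuclear alarm cytokine, was at 12.16 and 9.55 in mutants 1 and 2 and 6.20 and 5.73 in controls 3 and 4 (4.89 ± 0.84, SE, adjusted p = 4.9e-04), and at least 25.6-fold higher than in P3 controls, where it was not detected (adjusted p = 2.0e-04). The 2 mutants differed in Il33 by more than 1 log2 unit, with mutant 1 the higher. Il36b, named Il1f8 in the file, rose by 5.42 ± 0.61 (SE, adjusted p = 1.0e-05), and its antagonist Il36rn, named Il1f5, by 4.18 ± 0.70 (SE, adjusted p = 4.0e-04). Il18 rose by 3.70 ± 0.73 (SE, adjusted p = 0.0015). None of these 3 passed against P3 controls, where the differences were 0.60 ± 0.53 (SE, adjusted p = 0.47), 0.83 ± 0.61 (SE, adjusted p = 0.37) and 0.20 ± 0.63 (SE, adjusted p = 0.86). Cytokines outside the family that rose include Tslp, which primes allergic inflammation and was undetected in controls (at least 3.59-fold, adjusted p = 0.0059), and Il24, by 2.41 ± 0.48 (SE, adjusted p = 0.0016). Il19, undetected in the controls, was at 10.61 and 6.54 in mutants 1 and 2 and 4.83 and 5.09 in controls 3 and 4 and at least 9.92-fold higher (adjusted p = 0.0099). Il19 was high in mutant 1 and dim in mutant 2, and its call did not hold without 1 array, nor did that of Tslp: the adjusted p was 0.19 for Il19 and 0.073 for Tslp without mutant 1; 0.064 for Il19 without control 3; 0.052 for Il19 without control 4. Of 20 other cytokines and receptors, 7 rose and 1 fell, and 5 were higher and 1 lower against P3 controls (median 0.73). With 1 array left out the rises of this list ran from 3 (without mutant 1) to 9 (without mutant 2). Chemokines and receptors moved both ways against P6 controls, 4 up and 2 down of 19, whereas 5 were higher and 0 lower against P3 controls (median 0.73). Their rises ran from 2 (without mutant 1) to 6 (without mutant 2) with 1 array left out, and 5 fell after centring. Cxcl16 rose by 2.47 ± 0.36 (SE, adjusted p = 1.3e-04), Ccl20, an attractant of Langerhans cells and T cells, was undetected in controls and at least 4.54-fold higher (adjusted p = 4.2e-05), while Cxcl12 fell by 2.61 ± 0.49 (SE, adjusted p = 0.0011) and Cxcl14 fell by 2.47 ± 0.54 (SE, adjusted p = 0.0031).

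Interferon-induced genes rose, and mutant 1 was far above mutant 2. Of 22 measured, 11 rose and 0 fell (median 1.76), and 15 were higher than in P3 controls (median 2.26). Oas1g, which makes the second messenger of RNase L, was at 11.04 and 8.29 in mutants 1 and 2 and 5.97 and 5.22 in controls 3 and 4 (4.07 ± 0.75, SE, adjusted p = 9.3e-04). Ifi35 lay at 9.91 and 8.36 in mutants 1 and 2 and 6.22 and 6.04 in controls 3 and 4 (3.01 ± 0.43, SE, adjusted p = 1.0e-04). Usp18, which removes ISG15 from proteins, lay at 11.43 and 8.61 in mutants 1 and 2 and 6.67 and 6.29 in controls 3 and 4 (3.54 ± 0.83, SE, adjusted p = 0.0052). Oasl2 was at 11.51 and 7.96 in mutants 1 and 2 and 5.98 and 5.80 in controls 3 and 4 (3.85 ± 0.99, SE, adjusted p = 0.0098), and Cxcl9, a chemokine induced by interferon gamma, at 10.78 and 7.72 in mutants 1 and 2 and 5.53 and 5.24 in controls 3 and 4 (3.86 ± 0.90, SE, adjusted p = 0.0051). In each of these 5 genes both mutants exceeded both controls, but 10574 of all 14215 genes were separated in either direction. Mutant 1 exceeded mutant 2 by more than 1 in 19 of the 22 genes and mutant 2 exceeded mutant 1 by as much in 0, with a median difference of 1.85. Over all 14215 genes these numbers were 354 and 190. They were 12 and 0 of 23 stress keratins and wound genes, 9 and 0 of 19 chemokines and receptors and 7 and 0 of 18 mitosis genes. For cornified envelope precursors they were 4 and 4 of 31, and for Nrf2-type antioxidants 1 and 4 of 33. Without mutant 1, 4 of 21 rose, without mutant 2 19 of 22, without control 3 8 and without control 4 5. After centring 6 rose, and with the chip as a block 7. For single genes: the adjusted p was 0.11 for Usp18, 0.18 for Oasl2 and 0.11 for Cxcl9 without mutant 1; 0.064 for Oasl2 without control 4. The labels and files give no value that separates the mutants, which lay on 1 chip, and 34.3 and 33.4% of their probes were detected. Psmb8, a subunit of the immunoproteasome, rose by 2.57 ± 0.48 (SE, adjusted p = 9.7e-04). The genes with the interferon element in their promoter among those that rose numbered 2 of 7 with a window, Oas1g among them.

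**Figure D4:**
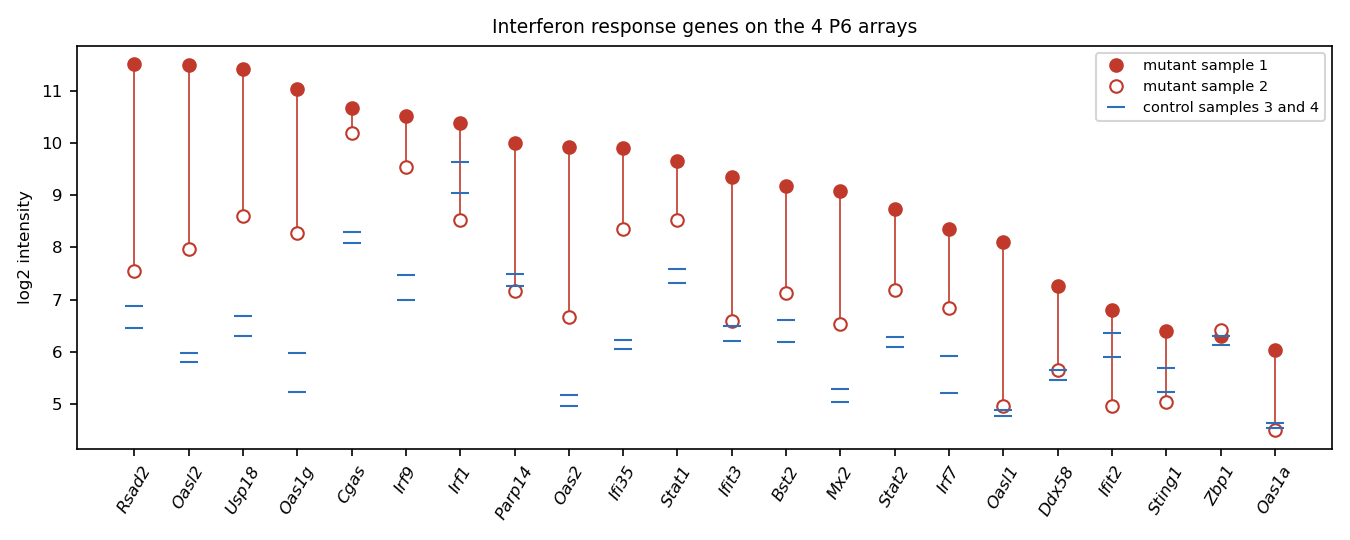
Normalized log2 level (vertical axis) of the 22 measured interferon-response genes in mutant 1, mutant 2 and the P6 controls (bars), 1 mark per array. Mutant 1 lies more than 1 log2 unit above mutant 2 in 19 genes.

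Antigen presentation genes rose, as did a part of the myeloid genes. In the list of Langerhans cells and MHC class II, 10 of 13 rose and 0 fell (median 2.23), and 7 were higher than in P3 controls. Its mean level was 9.3 and 9.5 in the mutants, 7.9 and 7.3 in the controls and 7.1 to 8.3 in P3 controls. Cd74, the invariant chain of class II, was at 12.58 and 12.55 in mutants 1 and 2 and 10.58 and 9.55 in controls 3 and 4 (2.50 ± 0.51, SE, adjusted p = 0.0021), and above P3 controls by 2.29 ± 0.44 (SE, adjusted p = 0.0038). Cd207, langerin, which defines Langerhans cells, was at 9.32 and 9.70 in mutants 1 and 2 and 7.20 and 6.03 in controls 3 and 4 (2.90 ± 0.82, SE, adjusted p = 0.017), and differed from P3 controls by 1.46 ± 0.71 (SE, adjusted p = 0.18). The call of Cd207 did not hold when some arrays were left out: the adjusted p was 0.058 without mutant 1, 0.10 without mutant 2 and 0.15 without control 4. It was 0.12 with the chip as a block and 0.075 after centring. The list count fell whichever P6 array was left out, a fit that leaves 1 group a single sample, and centring on pan-epidermal genes left 1 rise. Of 20 macrophage and myeloid genes 5 rose and 2 fell, and 6 were higher and 0 lower against P3 controls (median 1.07). Leaving out 1 array gave from 1 (without mutant 2 or control 4) to 2 (without mutant 1 or control 3) rises, and centring 1 rise and 3 falls. Csf1r, the receptor for a macrophage growth factor, rose by 1.65 ± 0.28 (SE, adjusted p = 4.7e-04) but had an adjusted p of 0.057 after centring, and Cd163, of dermal macrophages, was undetected in the mutants and at least 1.35-fold lower (adjusted p = 1.6e-04). Of 12 T and natural killer cell genes 1 rose and 1 fell, and none passed against P3 controls or with any P6 array left out. Cd3e, a subunit of the T cell receptor complex, differed by 1.27 ± 0.54 (SE, adjusted p = 0.11). Thy1, which marks T cells and also dermal fibroblasts, fell by 2.44 ± 0.71 (SE, adjusted p = 0.020), a call lost whichever P6 array was left out: the adjusted p was 0.059 without mutant 1, 0.12 without mutant 2, 0.13 without control 3 and 0.063 without control 4.

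Hair genes fell, and did so against P3 controls too. Of 13 hair shaft keratins, 9 fell and 0 rose (median -2.80), and against P3 controls 13 fell (median -2.86). Krt31, a type I keratin of the shaft cortex, was at 9.12 and 8.50 in mutants 1 and 2 and 12.43 and 12.75 in controls 3 and 4. Both mutants were well below the controls (-3.78 ± 0.50, SE, adjusted p = 4.8e-05), and the level was also lower than in P3 controls (-4.07 ± 0.43, SE, adjusted p = 1.9e-05), which ran from 12.39 to 13.18. The mean of the hair shaft keratins was 9.0 and 8.4 in P6 mutants, 8.3 and 8.5 in P3 mutants, and 11.3 to 12.2 in P3 controls. Krt36 lay at 8.68 and 7.49 in mutants 1 and 2 and 11.92 and 11.78 in controls 3 and 4 (-3.77 ± 0.38, SE, adjusted p = 3.8e-06), and Krt35 fell by 4.03 ± 0.69 (SE, adjusted p = 4.8e-04), Krt33b fell by 3.62 ± 0.84 (SE, adjusted p = 0.0050) and Krt81 fell by 3.50 ± 0.80 (SE, adjusted p = 0.0045). Of 23 keratin-associated proteins, the matrix between hair keratin filaments, 12 fell at P6 and 20 against P3 controls, with medians of -1.83 and -3.14. Krtap19-4 fell by 4.47 ± 0.48 (SE, adjusted p = 6.2e-06) and Krtap14 fell by 4.19 ± 0.56 (SE, adjusted p = 4.8e-05). Keratin-associated protein genes are similar in sequence, so probes may share signal, and leaving out 1 P6 array left from 7 (without mutant 2 or control 4) to 9 (without control 3) falls, against 18 after centring.

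Inner sheath and follicle regulators fell with them. In the list of the inner root sheath and companion layer, 7 of 15 fell and 2 rose, and 1 was higher and 5 lower against P3 controls (median -1.40). Krt72 and Krt26, keratins of the sheath, fell, with differences of -3.51 ± 0.34 (SE, adjusted p = 2.1e-06) and -3.14 ± 0.48 (SE, adjusted p = 1.9e-04). S100a3, of the hair cuticle, fell by 3.24 ± 0.55 (SE, adjusted p = 4.3e-04), and Krt71, the sheath keratin whose mutation gives curly hair in mice, differed by -1.83 ± 0.88 (SE, adjusted p = 0.16). Among 26 hair matrix and follicle regulators 18 fell at P6 (median -1.79) and 8 against P3 controls (median -0.98). Shh, a growth signal of the hair matrix, was at 5.75 and 5.54 in mutants 1 and 2 and 8.82 and 9.31 in controls 3 and 4 (-3.42 ± 0.55, SE, adjusted p = 3.0e-04), and -0.94 ± 0.48 (SE, adjusted p = 0.20) relative to P3 controls. Hoxc13, a factor that switches on hair keratin genes, was at 6.95 and 6.31 in mutants 1 and 2 and 9.83 and 9.83 in controls 3 and 4 (-3.20 ± 0.59, SE, adjusted p = 9.2e-04; against P3 controls -1.29 ± 0.51, SE, adjusted p = 0.11). Wnt5a fell by 3.27 ± 0.79 (SE, adjusted p = 0.0065), and did not pass in 1 case: the adjusted p was 0.068 without mutant 2. Trps1 fell by 2.92 ± 0.45 (SE, adjusted p = 1.9e-04) and Msx1, undetected in the mutants, was at least 14.6-fold lower (adjusted p = 3.1e-05). For hair follicle stem cells 10 of 16 fell, while 0 were higher and 4 lower against P3 controls (median -0.59). Lgr5 was undetected in the mutants and at least 2.65-fold lower (adjusted p = 0.0018), Cd34 likewise at least 3.20-fold (adjusted p = 0.0010), and Tbx1 fell by 4.25 ± 0.52 (SE, adjusted p = 2.4e-05). Dermal papilla genes, of the mesenchymal core of the follicle, fell in 9 of 13 at P6 and in 0 against P3 controls. Corin was undetected in the mutants and at least 8.81-fold lower (adjusted p = 2.6e-07). Of 15 sebaceous gland genes 3 rose and 0 fell at P6, Dgat2 by 2.41 ± 0.29 (SE, adjusted p = 1.7e-05) upwards, while 0 were higher and 2 lower against P3 controls (median -0.69) and 4 fell at P6 after centring.

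Genes of dividing cells fell against P6 controls, where fibroblast genes fell too, and no mitosis gene passed downwards against P3 controls. Of 18 mitosis genes 12 fell and 0 rose (median -1.89), while against P3 controls 0 fell and 1 was higher (median -0.20). Mki67, present in all cycling cells, was at 8.59 and 7.40 in mutants 1 and 2 and 10.33 and 10.74 in controls 3 and 4 (-2.54 ± 0.71, SE, adjusted p = 0.016), and differed from P3 controls, which ran from 7.89 to 9.08, by -0.62 ± 0.61 (SE, adjusted p = 0.52). Nusap1, which stabilizes spindle microtubules, was at 8.52 and 7.97 in mutants 1 and 2 and 10.38 and 10.47 in controls 3 and 4 (-2.18 ± 0.34, SE, adjusted p = 2.1e-04; against P3 controls 0.65 ± 0.29, SE, adjusted p = 0.15). Kif22, the chromosome-pushing kinesin, lay at 8.16 and 7.11 in mutants 1 and 2 and 10.05 and 10.06 in controls 3 and 4 (-2.42 ± 0.78, SE, adjusted p = 0.034). In all 3 genes mutant 1 stood above mutant 2. Calls of this group did not all hold when 1 P6 array was left out, which leaves 1 group a single sample. Kif22 lost its call whichever array it was, and Mki67 in every case but without mutant 1. The differences then ran from -3.13 to -1.94 for Mki67 and from -2.94 to -1.89 for Kif22. With 1 P6 array left out, the falls among mitosis genes numbered from 3 (without mutant 2 or control 4) to 8 (without mutant 1). Of 26 spindle checkpoint and kinetochore genes, the pathway in which Mad2 acts, 10 fell (median -1.24), or from 1 (without mutant 2 or control 4) to 6 (without mutant 1 or control 3) with 1 array left out and 20 after centring, and 1 was higher and 1 lower against P3 controls. That 1 lower gene was Mad2l1 (-1.39 ± 0.42, SE, adjusted p = 0.040). Aurkb, a kinase of the chromosomal passenger complex, fell by 1.65 ± 0.37 (SE, adjusted p = 0.0043) and Kntc1, which brings Mad1 and Mad2 towards kinetochores, fell by 1.67 ± 0.57 (SE, adjusted p = 0.043): the adjusted p was 0.071 for Kntc1 without mutant 1; 0.066 for Aurkb and 0.25 for Kntc1 without mutant 2; 0.10 for Kntc1 without control 3; 0.074 for Aurkb and 0.20 for Kntc1 without control 4. With the chip as a block the adjusted p of Aurkb was 0.053.

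Replication genes went the same way. Of 29 DNA replication and S phase genes 11 fell and 0 rose, but 4 were higher and 0 lower than in P3 controls, and leaving out 1 array left from 3 (without mutant 2 or control 4) to 8 (without mutant 1 or control 3) falls, against 18 after centring. Uhrf1, which maintains DNA methylation at replication, was at 9.49 and 8.53 in mutants 1 and 2 and 11.68 and 11.93 in controls 3 and 4 (-2.79 ± 0.39, SE, adjusted p = 8.3e-05; against P3 controls 0.04 ± 0.34, SE, adjusted p = 0.95). Lig1, the ligase of Okazaki fragments, fell by 2.12 ± 0.33 (SE, adjusted p = 2.2e-04). Of 27 DNA damage response and repair genes 8 fell and 0 rose, and 0 were higher and 2 lower against P3 controls (median -0.15). With 1 array left out from 2 (without mutant 2 or control 4) to 6 (without mutant 1) fell, and after centring 16. Among 19 Cdk inhibitors and G1 regulators 4 rose and 4 fell, and 1 was higher and 1 lower against P3 controls (median -0.06). With 1 array left out the rises numbered 0 (without mutant 1 or control 3 or control 4) to 1 (without mutant 2) and the falls 1 (without mutant 2 or control 4) to 3 (without mutant 1), and after centring 0 rose and 6 fell. Cdkn1c fell by 3.76 ± 0.50 (SE, adjusted p = 4.6e-05), and Ccnd2 fell by 3.03 ± 0.90 (SE, adjusted p = 0.022), the latter not in every case: the adjusted p was 0.17 without mutant 2, 0.081 without control 3 and 0.12 without control 4.

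Trp53 itself did not pass, at 8.31 and 8.90 in mutants 1 and 2 and 9.62 and 9.81 in controls 3 and 4 (-1.11 ± 0.62, SE, adjusted p = 0.23). Of 34 p53 targets 10 rose and 0 fell at P6, and 10 were higher and 1 lower against P3 controls. The median was 0.39 at P6, 0.53 against P3 controls and -0.34 at P6 after centring on pan-epidermal genes, where 3 rose. That change of sign follows from the shift that centring gives to all genes. Ccng1, cyclin G1, was at 10.79 and 11.08 in mutants 1 and 2 and 9.08 and 9.49 in controls 3 and 4 (1.65 ± 0.32, SE, adjusted p = 0.0015), and 2.25 ± 0.28 (SE, adjusted p = 9.3e-05) above P3 controls. Pmaip1, the death gene Noxa, was at 8.16 and 7.44 in mutants 1 and 2 and 5.30 and 5.61 in controls 3 and 4 (2.35 ± 0.52, SE, adjusted p = 0.0037). Zmat3 lay at 9.68 and 10.17 in mutants 1 and 2 and 8.21 and 8.37 in controls 3 and 4 (1.63 ± 0.40, SE, adjusted p = 0.0076). Both mutants exceeded both controls in these 3 genes, with exceptions to the call: the adjusted p was 0.051 for Pmaip1 without mutant 1; 0.084 for Zmat3 without mutant 2; 0.057 for Zmat3 without control 3. After centring, Ccng1 had an adjusted p of 0.13. Cdkn1a, the Cdk inhibitor p21, was at 12.86 and 13.24 in mutants 1 and 2 and 12.40 and 12.41 in controls 3 and 4 and called at an adjusted p of 0.049, a call lost whichever P6 array was left out (adjusted p from 0.057 to 0.33), and its difference turned to -0.08 (adjusted p = 0.87), not past the threshold, after centring. Mdm2, the ubiquitin ligase of p53, differed by 0.60 ± 0.29 (SE, adjusted p = 0.15). With 1 array left out the list held from 5 (without mutant 1 or mutant 2) to 6 (without control 3 or control 4) rises.

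Genes of dermal and other cell types were among the largest falls. In the list of fibroblasts and dermal matrix 22 of 24 fell (median -5.10), against 3 lower and 1 higher relative to P3 controls (median -0.20). Col1a1, the main collagen of dermis, was at 4.68 and 4.58 in mutants 1 and 2 and 12.79 and 13.08 in controls 3 and 4, undetected in the mutants and at least 157-fold lower (adjusted p = 6.0e-06). It was undetected in P3 controls as well. Of 20 endothelium and pericyte genes 17 fell and none passed against P3 controls. Pecam1, of endothelial junctions, was at 5.55 and 4.72 in mutants 1 and 2 and 8.45 and 8.50 in controls 3 and 4 and at least 7.16-fold lower (adjusted p = 1.7e-06). Falls were 3 of 5 red blood cell genes, 6 of 15 muscle genes and 3 of 11 adipocyte genes, with no rise in these 3 lists. Against P3 controls the numbers higher and lower were 0 and 1 for red blood cells, 2 and 0 for muscle and 0 and 2 for adipocytes. With 1 array left out red blood cell genes held 1 fall whichever array it was, and the falls ran from 1 (without mutant 1 or mutant 2 or control 4) to 3 (without control 3) for adipocytes and from 1 (without mutant 2 or control 3 or control 4) to 2 (without mutant 1) for Merkel cells. For nerve and Schwann cells they were 7 of 11, beside 1 rise, that of Mbp (1.88 ± 0.30, SE, adjusted p = 3.0e-04), which turned to -0.60 (adjusted p = 0.49) with all its probes averaged. The falls of this list ran from 0 (without control 4) to 2 (without mutant 1 or mutant 2 or control 3) with 1 array left out, and none of it passed against P3 controls. Mast cell genes fell in 5 of 8, Cpa3 being undetected in the mutants and at least 9.51-fold lower (adjusted p = 1.0e-07), and Merkel cell genes in 2 of 4. Against P3 controls 1 mast cell gene was higher and 0 lower, and no gene of the Merkel cells list passed. Melanocyte genes fell in 8 of 15 at P6, and 3 were higher and 0 lower against P3 controls (median 0.43). Mlana, a melanosome protein, was at 8.38 and 8.03 in mutants 1 and 2 and 11.13 and 11.99 in controls 3 and 4 (-3.35 ± 0.53, SE, adjusted p = 2.3e-04), and differed from P3 controls by 1.22 ± 0.46 (SE, adjusted p = 0.090). How much of the fall of hair, basal or division genes goes with these lists was not tested. Of the 13 hair shaft keratins and the 18 mitosis genes, 13 and 0 were lower against P3 controls, whose fibroblast genes averaged 5.9 to 6.0.

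The P6 differences overlapped those of P13, which rest on other arrays. At P13 1420 genes rose (9.99%) and 1501 fell (10.6%). Genes that rose at both ages numbered 647, which is 47.9% of the P6 rises and 45.6% of the P13 rises, and 49 P6 rises fell at P13. Of the falls 507 were shared, 26.9% of those at P6 and 33.8% of those at P13, and 102 P6 falls rose at P13. Rises called at both ages included 22 of 31 cornified envelope precursors, 13 of 23 stress keratins and wound genes and 10 of 22 interferon genes. Falls at both ages included 9 of 13 hair shaft keratins and 5 of 24 fibroblast genes. At P13 Krt16 differed by 5.59 ± 0.55 (SE, adjusted p = 3.1e-06), Sprr2d by 9.20 ± 0.72 (SE, adjusted p = 2.1e-07) and S100a9 by 6.94 ± 1.07 (SE, adjusted p = 2.5e-04).

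**Figure D5:**
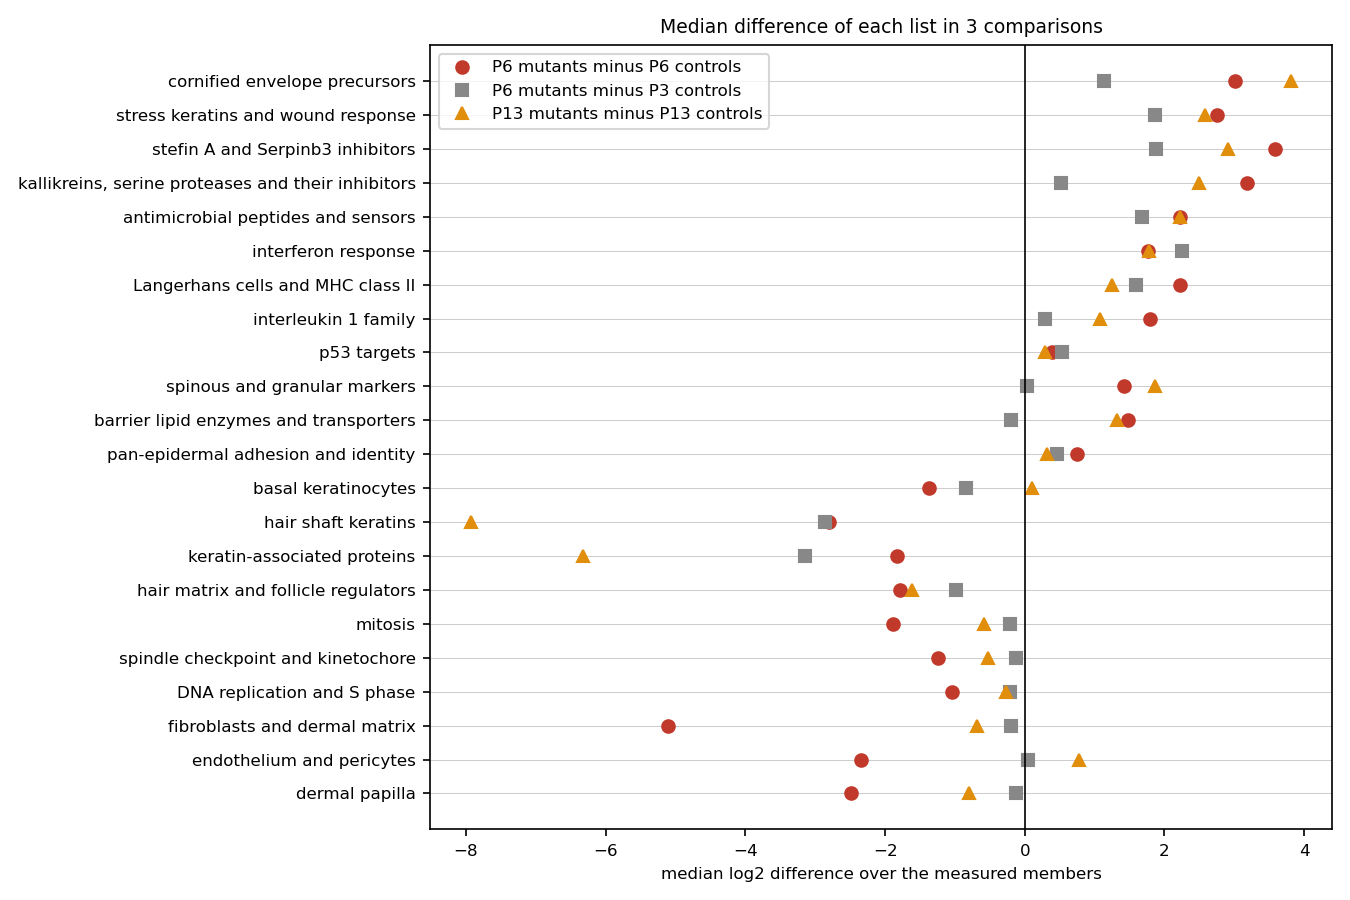
Median log2 difference of each gene list (horizontal axis) for P6 mutants minus P6 controls, P6 mutants minus P3 controls and P13 mutants minus P13 controls. Hair shaft keratins lie at -2.80, -2.86 and -7.92 in these 3 comparisons, as medians of fitted values that include genes undetected in 1 group.

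The difference between the 2 ages was tested gene by gene as the P6 effect minus the P13 effect. It passed for 626 genes upwards (4.4%) and 799 downwards (5.62%). Serpinb3c, high in P6 mutants, was undetected in all P13 arrays, and its effects differed with an adjusted p of 4.3e-05. Il1a stood at 5.98 and 7.48 in the mutants and 5.99 and 6.51 in the controls at P13 (3.18 ± 0.95, SE, adjusted p = 0.044). Hair shaft keratins were lower at P13 than at P6 relative to their controls in 10 of 13 genes by this test. For Krt31 the effect was -3.78 at P6, and at P13, where the mutants had no detected level, it was at least 159-fold lower (adjusted p of the difference = 3.5e-04). Fibroblast genes differed the other way in 17 of 24: Col1a1 had an effect of -2.88 at P13 and was undetected in the P6 mutants (adjusted p of the difference = 0.011). Of the mitosis genes 1 of 18 passed downwards and 0 upwards, and Mki67 differed at P13 by -1.59 ± 0.71 (SE, adjusted p = 0.13). The mean level of fibroblast genes was 9.2 and 9.3 in P13 mutants and 9.9 and 9.5 in P13 controls, a smaller gap than at P6. All P13 arrays lay on 1 chip that held no P6 array.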

How the data were processed

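RNA of peeled mouse epidermis had been hybridised to Illumina BeadChips. The authors deposited an unnormalized intensity per probe and array. Per the file headers each array also has a detection p-value, but in 13 of the columns the deposited value is the fraction 1 minus p, since it rises with the signal, and these were turned. The detection column of 1 adult array was not used. The deposited log2 matrix, made with limma per the submitters' processing notes with no version given, served as an alternative. Scanner software is not given in the sources used here.

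Of 45281 probes, 20430 were kept, each detected (p under 0.01) on 2 or more of 24 arrays. Intensities were background-corrected by normexp from the detection p-values (offset 16), quantile-normalized and taken to log2 in limma 3.58.1 under R 4.3.3. The brightest probe on average stood for its gene (14215 genes). Symbols were updated through RefSeq's gene table, 7994 by an older name, and the file's name was kept for 9322 probes. One linear model with a mean per group over all arrays had 12 residual and 3.89 prior degrees of freedom, and p-values were adjusted over all genes by Benjamini-Hochberg. No count depth exists for arrays, and their number limits the precision. The linear model step was tested before use on simulated log2 values with known changes. Background correction, normalization and the choice of probe were not simulated.

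The members and the 59 gene lists (1294 genes, 1061 measured) were chosen with earlier results of these data known. Genes were named by rule: Mad2l1, Trp53 and a set of anchor genes of the lists; the 10 largest rises and 10 largest falls without overlap that also passed at P13; the 8 largest in each direction that passed at P6 and in the difference of the ages but not at P13, outside the lists of other cells; and up to 5 members per list past the threshold. Krt17, Ltf, Retnlg and the neutrophil genes outside the measured set were named after their values were seen. Alternatives changed the background correction, offset, source of values, filter, probe summary, chip, arrays, weights, moderation and scaling, and left out each P6 array in turn. Centring set each array to the mean of pan-epidermal adhesion and identity genes.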

Additional observations from a re-analysis of the deposited data

Results flagged for a closer look

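In 1425 genes the difference between mutants and controls was not the same at P6 as at P13, by limma's test of the P6 effect minus the P13 effect. Age, chip and the gap in dermal signal between mutants and controls differ between P6 and P13 too. These cannot be told apart from a response to the mutation. Among the named genes that passed this test, the log2 difference of the effects was 7.25 for Serpinb3c, 5.27 for the probe named LOC385068, 4.61 for Skint3, 4.46 for Hpgds, a prostaglandin D synthase, 4.34 for the probe named LOC381286, 3.55 for H2-M2, a class I-like gene, 3.18 for Il1a and 2.68 for Serpinb3d, all with the higher effect at P6. In the other direction it was -5.51 for Serpinf1, -5.90 for Osr2, -6.02 for Bgn, -6.27 for Col4a2, -6.54 for Col4a1, -7.13 for Scarf2, -7.65 for Loxl1 and -7.89 for Aqp1. Dermal and vessel cells are among those that make collagen IV, Bgn and Loxl1. The mean level of the fibroblast list was 10.3 and 10.7 in the P6 controls against 5.7 in each P6 mutant. The part of dermal RNA in these differences was not tested. All are fitted values. Serpinb3c, Skint3 and LOC381286 were undetected in the P6 controls, Osr2, Col4a2, Scarf2, Loxl1 and Aqp1 in the P6 mutants, Skint3 and Hpgds in the P13 mutants and Serpinb3d in the P13 controls, so their values rest in part on levels not above background and give no exact size. These genes were picked by the size of their change at P6, so the values describe them.

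In the 4 P3 controls, 1 array stood far from the others in the mean level of 2 of 59 lists. The gap to the nearest array took 0.841 of the range for tight and gap junctions, where P3 control 4 was the higher, and 0.947 for melanocytes, where P3 control 5 was the higher. By chance such gaps occur in about 1 group in 20.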

How the results depend on the processing

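The calls at P6 numbered 3234, of which 1351 were higher and 1883 lower, and 1425 genes differed in their effect between P6 and P13. Leaving out 1 P6 array gave 1730 to 2093 calls, 699 to 874 higher and 1031 to 1225 lower, and 699 to 984 for the difference of the ages, the lone sample of a group being assumed to vary like the other groups. With only the 4 P6 arrays in the fit there were 5856 calls (2496 higher, 3360 lower), and with array weights 6520 (2865 higher, 3655 lower, 4558 for the difference of the ages). Centring on pan-epidermal genes gave 4603 calls, 492 higher and 4111 lower genes. Testing only genes detected in at least 12 arrays left 2443 calls, 1198 lower genes and 883 differences between the ages, with fewer genes tested. The chip as a block raised the latter to 2389, and 2390 were called within the chip that holds both genotypes. P3 controls in place of P6 controls, chosen after seeing the data, gave 1770 calls (865 higher, 905 lower). For these changes other than fewer genes or samples the cause was not tested. Under the other alternatives the P6 total lay between 2949 (no filter) and 3491 (chip as a block). Of the named genes called, 58 lost the call without mutant 1, 63 without mutant 2, 53 without control 3, 73 without control 4, 32 after centring, 28 with no filter and 14 with the chip as a block. The direction turned for Cdkn1a after centring, at -0.082 (adjusted p = 0.87), and for Mbp with its probes averaged, at -0.60 (adjusted p = 0.49). No paired analysis was possible because the P6 mutants are samples 1 and 2 and the controls samples 3 and 4, which share no number. Genes undetected in 1 group have only a lower limit for their fold.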

Other observations

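Retinoid genes and membrane transporters rose in part in the P6 mutants, where 9.5% of all genes rose and 13.2% fell. In the list of retinoid handling, 6 rose and 2 fell of 19 (median 0.80), 4 and 4 after centring (median 0.07), and 4 were higher and 1 lower against P3 controls. Rbp2, a cellular retinol carrier, was at 11.61 and 10.63 in mutants 1 and 2 and 6.64 and 5.93 in controls 3 and 4. Both mutants were well above both controls (4.83 ± 0.37, SE, adjusted p = 2.9e-07), and Crabp2, which carries retinoic acid to its receptors, rose by 3.45 ± 0.36 (SE, adjusted p = 4.4e-06). Among aquaporins, ion channels and transporters of keratinocytes, 10 rose and 0 fell of 17 (median 1.34), 6 and 1 after centring (median 0.61), and 5 were higher and 1 lower against P3 controls. With 1 P6 array left out 6 to 8 of them rose. Aqp9, a channel for water and glycerol, rose by 2.95 ± 0.30 (SE, adjusted p = 3.6e-06) and Slc5a1, a sodium-glucose transporter, by 3.45 ± 0.42 (SE, adjusted p = 2.4e-05). Of differentiation transcription factors, 5 rose and 1 fell of 23 (median 0.41), 3 and 2 after centring (median -0.32), and 2 were higher and 1 lower against P3 controls. Grhl3, which is needed for barrier formation, rose by 2.41 ± 0.36 (SE, adjusted p = 1.5e-04) and Cebpa by 1.91 ± 0.30 (SE, adjusted p = 2.1e-04). Of transglutaminases and peptidylarginine deiminases, 2 rose and 1 fell of 7 (median 0.41), 2 and 2 after centring (median -0.33), and 0 were higher and 2 lower against P3 controls. Tgm5, which cross-links the cornified shell, rose by 2.59 ± 0.28 (SE, adjusted p = 5.9e-06). For tight and gap junctions, 3 rose and 1 fell of 15 (median 0.25), 1 and 1 after centring (median -0.48), and 0 were higher and 0 lower against P3 controls. Among S100 proteins, 3 rose and 2 fell of 12 (median -0.12), 2 and 6 after centring (median -0.85), and 3 were higher and 4 lower against P3 controls. In the list of EGF receptor, ligands and feedback, 2 rose and 1 fell of 14 (median 0.23), 2 and 5 after centring (median -0.50), and 3 were higher and 2 lower against P3 controls.

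Members of death and stress lists passed in part, beside 9.5% of all genes that rose and 13.2% that fell at P6. For heat shock proteins, proteasome subunits and autophagy genes the P6 counts lay near or below these shares. Centring lowers all differences by the same amount, so their small positive medians turned negative. That of heat shock proteins and chaperonins was negative before. For the Bcl2 family, death receptors and caspases, 10 rose and 0 fell of 36 (median 0.29), 8 and 5 after centring (median -0.45), and 11 were higher and 1 lower against P3 controls. Gsdmc, a pore-forming gasdermin, was at 11.22 and 11.26 in mutants 1 and 2 and 5.27 and 5.29 in controls 3 and 4. Both mutants were far above the controls (5.96 ± 0.94, SE, adjusted p = 2.4e-04), and Bcl2l15 rose by 3.94 ± 0.64 (SE, adjusted p = 3.2e-04). Within the integrated stress and unfolded protein response, 5 rose and 0 fell of 27 (median 0.55), 2 and 1 after centring (median -0.18), and 1 was higher and 1 lower against P3 controls. Trib3, a pseudokinase induced by amino acid and endoplasmic reticulum stress, lay at 10.04 and 10.28 in mutants 1 and 2 and 7.06 and 6.86 in controls 3 and 4, with both mutants above both controls (3.20 ± 0.31, SE, adjusted p = 2.3e-06). Of heat shock proteins and chaperonins, 1 rose and 3 fell of 25 (median -0.28), 0 and 10 after centring (median -1.01), and 1 was higher and 0 lower against P3 controls. Among proteasome subunits, 3 rose and 0 fell of 33 (median 0.24), 1 and 3 after centring (median -0.49), and 4 were higher and 0 lower against P3 controls. For autophagy and lysosome genes, 1 rose and 3 fell of 25 (median 0.29), 1 and 4 after centring (median -0.44), and 3 were higher and 2 lower against P3 controls. Among Nrf2-type antioxidants, 7 rose and 5 fell of 33 (median 0.20), 6 and 11 after centring (median -0.53), and 6 were higher and 1 lower against P3 controls. Gsto1, a glutathione transferase, rose by 2.77 ± 0.47 (SE, adjusted p = 4.6e-04).

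Of the metabolic lists, cholesterol synthesis held the most rises. Over all genes 9.5% rose and 13.2% fell at P6, and the P6 counts of the respiratory chain and of ribosomal proteins lay below these shares. For cholesterol synthesis, 6 rose and 1 fell of 22 (median 0.63), 3 and 2 after centring (median -0.10), and 0 were higher and 3 lower against P3 controls. Mvk, mevalonate kinase, rose by 1.73 ± 0.27 (SE, adjusted p = 2.2e-04) and had an adjusted p of 0.070 after centring. For glycolysis and hypoxia, 4 rose and 0 fell of 20 (median 0.64), 2 and 0 after centring (median -0.09), and 5 were higher and 0 lower against P3 controls. With 1 array left out 1 to 2 glycolysis and hypoxia genes rose and 0 to 1 cytosolic ribosomal proteins fell. For the respiratory chain, nuclear-encoded, 1 rose and 0 fell of 33 (median 0.20), 1 and 5 after centring (median -0.53), and 2 were higher and 0 lower against P3 controls. Of cytosolic ribosomal proteins, 0 rose and 2 fell of 29 (median -0.35), 0 and 16 after centring (median -1.09), and 0 were higher and 3 lower against P3 controls. In the Notch pathway, 0 rose and 3 fell of 13 (median -1.03), 0 and 9 after centring (median -1.76), and 0 were higher and 0 lower against P3 controls. Notch4 and Hey1, which vessel cells also express, were undetected in the mutants and at least 8.75-fold and 5.14-fold lower (adjusted p = 4.7e-05 and 0.0028), beside the falls of endothelial genes, whose part in them was not tested. Of 4 sex-linked genes 0 rose and 0 fell.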
